A study of Mus musculus with 12 samples.

Results

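The genes of sterol and fatty acid synthesis were followed in preosteoclasts, bone marrow cells on the way to becoming osteoclasts, from LSD1WT and LSD1cKO mice. The set held 31 genes chosen by symbol for their place in the pathways, 22 in a sterol arm and 9 in a fatty acid arm, of 57010 genes listed. Each symbol matched 1 row of the count table, and all 31 genes were among the 15425 with enough counts to test. RNA was sequenced in bulk from 12 cultures of female mice, 2 for each genotype in each of 3 kinds of culture: bone marrow of the mandible of ligated mice, of the femur of ligated mice, and of the femur of unligated mice. LSD1cKO mice carried a floxed LSD1 gene (Kdm1a), a histone demethylase, deleted by Cre recombinase from the LysM (Lyz2) promoter, which is active in myeloid cells and not in osteoclasts alone. LSD1WT mice were the controls without this deletion. In ligated mice silk ligatures had been tied around upper molars on both sides for 7 days to bring on local inflammation, and every culture received M-CSF and RANKL, the cytokines that drive osteoclast formation, for 2 days. The series description gives an age of 2 months, while the study's methods give another age and name marrow of the mandible alone for the sequenced mice.

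Cholesterol is built from acetyl-CoA through mevalonate, farnesyl diphosphate, squalene and lanosterol, and the transcription factor SREBP2 (Srebf2) turns on the genes of this route when sterols run low. Fatty acids are built from the same acetyl-CoA by Acly, Acaca and Fasn and are then elongated and desaturated, and SREBP1 (Srebf1) drives many of these genes. In osteoclasts the mevalonate branch also supplies the prenyl groups of small GTPases, and its enzyme Fdps is the target of the nitrogen-containing bisphosphonates used against bone loss.

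Promoter sequence is shown for the 3 genes with the smallest p in the comparison of genotypes, Hmgcs1, Nsdhl and Insig1. Each line gives the 150 bases directly before the RefSeq start site on the coding strand (build GRCm38.p6), at chr13:119690201-119690350 (plus strand), chrX:72918371-72918520 (plus strand) and chr5:28071262-28071411 (plus strand). Capitals mark TCACNCCAC (the core of a sterol response element), CCAAT and CACGTG (an E-box) on either strand.
Hmgcs1: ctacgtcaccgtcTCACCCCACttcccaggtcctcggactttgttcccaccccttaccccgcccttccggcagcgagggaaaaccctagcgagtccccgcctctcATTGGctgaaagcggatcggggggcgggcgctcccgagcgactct
Nsdhl: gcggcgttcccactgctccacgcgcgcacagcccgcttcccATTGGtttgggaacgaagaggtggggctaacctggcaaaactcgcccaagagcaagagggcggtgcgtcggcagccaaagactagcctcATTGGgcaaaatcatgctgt
Insig1: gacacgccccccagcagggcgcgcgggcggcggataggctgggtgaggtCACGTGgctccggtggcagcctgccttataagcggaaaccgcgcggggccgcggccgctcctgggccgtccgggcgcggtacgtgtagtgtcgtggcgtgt
Hmgcs1 held 1 match to TCACNCCAC here and Nsdhl held 2 to CCAAT, read on the other strand as ATTGG. RefSeq entries were at hand for 24 of the 31 genes, with 30 start sites. In the 250 bases before the start, TCACNCCAC lay in 1 of the 30, against 1.05% of all 32851 start sites. CCAAT lay at 16 of 22 start sites of the sterol arm (72.7%) and at 3 of 8 of the fatty acid arm (37.5%), against 33.8% of all. GGGCGG, the GC box, lay at 18 of 22 sterol (81.8%) and 4 of 8 fatty acid start sites (50%), against 32.7% of all. CACGTG lay at 5 of 22 sterol start sites (22.7%) and at 0 of 8 of the fatty acid arm, against 6.02% of all. No matches to different motifs overlapped, and several start sites of 1 gene can share bases.

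The libraries held 21375805 to 32526751 counts each. Kdm1a was at 61.2 to 71.3 CPM (the count of a gene corrected for how deeply its library was sequenced) in the 6 LSD1WT libraries and at 15.6 to 24.3 CPM in the 6 LSD1cKO libraries. Both femur LSD1WT libraries numbered 2, from a ligated and an unligated mouse, stood apart from the rest. Their summed osteoclast markers (14 of 14 tested) reached 931 and 889 CPM, against 13406 to 43724 CPM in the other 10 libraries, and their macrophage markers (8 of 8 tested) reached 44654 and 21572 CPM, against 2825 to 10352 CPM. Lyz2, whose promoter drives Cre in LSD1cKO mice, made up 35330 and 13829 CPM of these macrophage sums. Adgre1, Csf1r, Mrc1, Cd14, Fcgr1 and Mertk also exceeded the other 10 libraries, while Cd68, at 1102 and 1168 CPM, did not. The spread between the replicates of a condition ran from a coefficient of variation of 0.0246 (LSD1WT mandible) to 0.716 (LSD1WT ligated femur). One mandible LSD1WT library, replicate 3, has a library name and a count column with an abbreviation for the femur although its title names the mandible, and was kept in the mandible. Each result is therefore given with all 12 libraries and, where it differs, without the femur LSD1WT libraries numbered 2. In bulk RNA, fewer cells of a type and less RNA per cell cannot be told apart.

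Within the set, levels per kilobase of exon spanned a wide range. By the median over 12 libraries, Acly stood highest at 49.3 CPM per kb, ahead of Hmgcs1 at 35.1, Scd2 at 35.0, Insig1 at 30.3 and Srebf2 at 26.6 CPM per kb. The ranges of these 5 genes over the libraries overlapped, and with the longest transcript as the length Srebf2 and Msmo1 moved ahead of Scd2. At the other end were Tm7sf2, a sterol reductase, at 0.762 CPM per kb, Scd1 at 1.37 and Elovl6 at 1.45 CPM per kb. The heat map of all 31 genes shows 1 library apart from the others in both arms, LSD1WT unligated femur replicate 2, whose mean over the sterol arm lay 1.42 log2 units above the arm's average over the 12 libraries and whose mean over the fatty acid arm lay 1.95 above. LSD1WT ligated femur replicate 2 was next, at 0.69 and 0.55. By the same mean the mandible cultures were lowest in the fatty acid arm, at -0.99 and -0.98 in LSD1WT and -0.70 and -0.44 in LSD1cKO. By the arm's median they were not, since LSD1cKO ligated femur replicate 2 was lowest at -0.34 and the mandible libraries lay between -0.30 and -0.13.

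**Figure D1:**
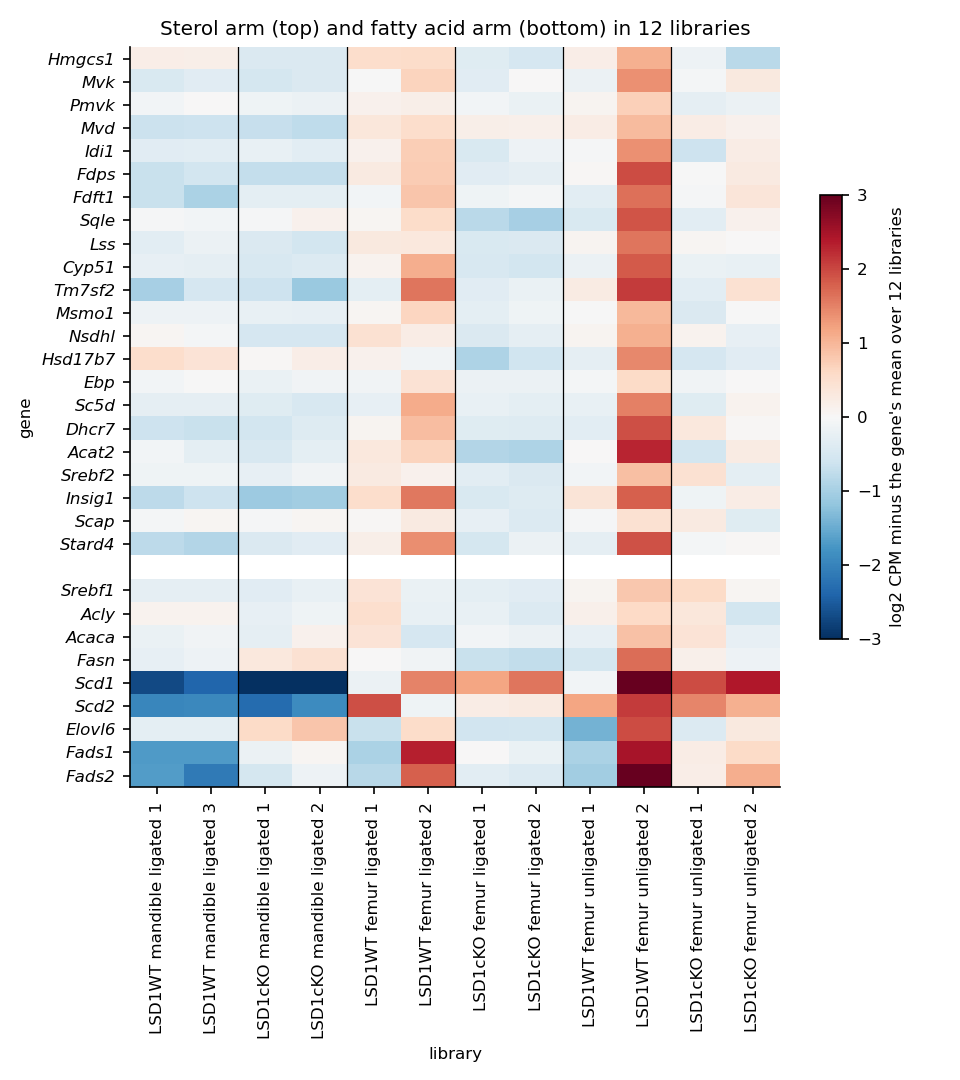
Heat map of the 31 genes (rows; 22 of the sterol arm above, 9 of the fatty acid arm below) in 12 libraries (columns), coloured by log2 CPM minus the gene's mean over the 12 libraries, with colours saturating at -3 and 3. LSD1WT unligated femur replicate 2 is high in nearly every row, and Scd1 and Scd2 are low in all 4 mandible libraries.

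The comparison of LSD1cKO with LSD1WT over the 3 cultures asks what loss of LSD1 did to these genes. Of the 22 sterol genes 1 passed the test, Hmgcs1, which makes the precursor of mevalonate and was lower in LSD1cKO. Its levels were lower in LSD1cKO in all 3 cultures, and it was called with and without the libraries that stood apart. All 22 sterol genes had a negative log2 fold change, with a median of -0.65, and so had all 9 fatty acid genes, with a median of -0.35, while the median of all genes tested was -0.06. The sterol median was -0.27 without LSD1WT unligated femur replicate 2 alone, and the fatty acid median was 0.16. By the quasi-likelihood test of edgeR, with p adjusted after Benjamini and Hochberg, 1 of the 31 genes was called lower and 0 higher, against 0.532% of all genes called lower. DESeq2 called 3 of the 31, against 8.09% of all genes, a share near the background. At an unadjusted p under 0.05, 11 genes were lower (10 of the sterol arm, and Acly), against 7.76% of all genes.

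In the values that follow, LSD1WT replicates come first and LSD1cKO replicates after "against". Hmgcs1 was at 182 and 179 against 118 and 117 CPM in the mandible, 229 and 233 against 123 and 112 CPM in the ligated femur, and 183 and 336 against 143 and 90.9 CPM in the unligated femur. Every LSD1WT library lay above every LSD1cKO library (log2 fold change -0.92 ± 0.17 SE, adjusted p = 0.0176 by edgeR). This held for 1 other member, Pmvk, the phosphomevalonate kinase, and for 0.797% of all genes. Pmvk was at 17.4 and 18.6 against 17.0 and 16.4 CPM in the mandible, 20.1 and 20.7 against 17.3 and 16.0 CPM in the ligated femur, and 19.6 and 30.4 against 15.3 and 16.5 CPM in the unligated femur. The gap was small beside that of Hmgcs1 (-0.35 ± 0.14 SE, adjusted p = 0.222 by edgeR). Acat2, the thiolase that joins the acetyl-CoA units before Hmgcs1 acts, was at 11.9 and 10.3 against 8.999 and 10.3 CPM in the mandible, 15.7 and 19.96 against 6.80 and 6.66 CPM in the ligated femur, and 12.8 and 61.6 against 8.59 and 14.9 CPM in the unligated femur. Its ligated femur groups stood apart with LSD1cKO lower, and the others overlapped (-1.10 ± 0.38 SE, adjusted p = 0.169 by edgeR). Leaving out the femur LSD1WT libraries numbered 2 left Hmgcs1 lower (log2 fold change -0.69 ± 0.13 SE, adjusted p = 0.0031 by edgeR). Leaving out either ligated femur LSD1cKO library took its adjusted p to 0.0557 or 0.0636. An antisense transcript, Gm48342, overlaps 12.1% of the exon bases of Hmgcs1 in the GENCODE annotation, and no source used here says whether counting used strand.

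The enzymes that make and close squalene had wider spread. Fdft1, squalene synthase, was at 17.4 and 14.2 against 22.6 and 22.4 CPM in the mandible, 26.0 and 49.5 against 25.3 and 26.6 CPM in the ligated femur, and 22.2 and 87.5 against 26.9 and 35.3 CPM in the unligated femur. LSD1cKO was above LSD1WT in the mandible and the groups did not overlap there, and in the femur it lay below the LSD1WT libraries numbered 2 but near LSD1WT replicate 1 or above it (-0.29 ± 0.34 SE, adjusted p = 0.753 by edgeR). Exons of Ctsb on the other strand overlap 18.3% of the exon bases of Fdft1. Sqle, squalene epoxidase, was at 46.4 and 44.7 against 46.0 and 51.3 CPM in the mandible, 48.8 and 68.8 against 26.9 and 23.7 CPM in the ligated femur, and 34.2 and 174 against 38.1 and 51.4 CPM in the unligated femur. Only the ligated femur groups stood apart, with LSD1cKO lower (-0.79 ± 0.37 SE, adjusted p = 0.329 by edgeR). Lss, lanosterol synthase, was at 32.8 and 36.0 against 30.1 and 27.6 CPM in the mandible, 50.2 and 51.0 against 29.5 and 30.3 CPM in the ligated femur, and 43.2 and 124 against 42.2 and 41.1 CPM in the unligated femur. LSD1cKO was lower without overlap in all 3 cultures, by a margin under 3 CPM against LSD1WT replicate 1 of the unligated femur (-0.67 ± 0.23 SE, adjusted p = 0.158 by edgeR).

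Among the enzymes after lanosterol, Nsdhl and Hsd17b7 had the smallest p. Nsdhl, a dehydrogenase in the removal of methyl groups from lanosterol, was at 31.3 and 28.9 against 21.3 and 21.1 CPM in the mandible, 40.9 and 35.0 against 22.2 and 25.03 CPM in the ligated femur, and 31.8 and 62.3 against 32.2 and 25.3 CPM in the unligated femur. The mandible and ligated femur groups were apart with LSD1cKO lower, while LSD1cKO replicate 1 of the unligated femur exceeded LSD1WT replicate 1 (-0.63 ± 0.16 SE, adjusted p = 0.0555 by edgeR). Hsd17b7, which reduces the ketone left by that removal, was at 23.0 and 20.9 against 16.3 and 18.2 CPM in the mandible, 17.3 and 14.8 against 8.28 and 10.4 CPM in the ligated femur, and 13.1 and 43.2 against 11.1 and 12.5 CPM in the unligated femur. LSD1cKO was lower without overlap in each culture (-0.79 ± 0.26 SE, adjusted p = 0.157 by edgeR). Cyp51, the lanosterol demethylase, was at 47.4 and 47.2 against 40.3 and 42.9 CPM in the mandible, 60.9 and 121 against 40.8 and 38.7 CPM in the ligated femur, and 49.8 and 203 against 49.2 and 48.2 CPM in the unligated femur. It too was lower without overlap in each culture, but LSD1cKO lay within 2 CPM of LSD1WT replicate 1 in the unligated femur (-0.92 ± 0.33 SE, adjusted p = 0.192 by edgeR).

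The remaining sterol enzymes were Mvk, Mvd, Idi1, Fdps, Tm7sf2, Msmo1, Ebp, Sc5d and Dhcr7, the last of which closes the pathway. Their log2 fold changes ran from -0.92 (Tm7sf2) to -0.27 (Ebp), with edgeR adjusted p from 0.249 (Msmo1) to 0.461 (Dhcr7). Fdps had an adjusted p of 0.264 by edgeR and ranged from 30.9 CPM in the LSD1cKO mandible to 197 CPM in LSD1WT unligated femur replicate 2. Mvd, the decarboxylase, and Msmo1, a methylsterol oxidase, were lower in LSD1cKO without overlap in each culture. In the unligated femur, however, LSD1WT replicate 1 and the higher LSD1cKO library were nearly level. They were at 38.5 and 38.4 CPM for Mvd and at 114.8 and 114.6 CPM for Msmo1.

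Of the regulators, Insig1 had the largest difference. Insig1, the protein that holds SREBPs in the endoplasmic reticulum and is itself an SREBP target, was at 64.7 and 72.0 against 52.2 and 54.1 CPM in the mandible, 161 and 332 against 81.7 and 85.4 CPM in the ligated femur, and 146 and 383 against 102 and 130.3 CPM in the unligated femur. LSD1cKO was lower without overlap in every culture (-1.04 ± 0.29 SE, adjusted p = 0.0851 by edgeR), and DESeq2 called it at an adjusted p of 0.0104. Srebf2 was at 190.2 and 189 against 173 and 192 CPM in the mandible, 250.4 and 226 against 167 and 154 CPM in the ligated femur, and 195 and 384 against 283 and 169.7 CPM in the unligated femur. Its ligated femur groups stood apart with LSD1cKO lower, and the other groups overlapped (-0.33 ± 0.19 SE, adjusted p = 0.446 by edgeR). Srebf1 was at 61.0 and 61.4 against 58.2 and 62.9 CPM in the mandible, 98.2 and 64.4 against 60.4 and 58.3 CPM in the ligated femur, and 78.7 and 131 against 110.3 and 77.3 CPM in the unligated femur. It followed the same pattern with a smaller difference (-0.21 ± 0.16 SE, adjusted p = 0.602 by edgeR). Scap, the SREBP escort, ranged from 33.4 to 60.7 CPM and Stard4, a cholesterol carrier, from 25.6 to 175 CPM, and their edgeR adjusted p were 0.481 and 0.473.

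In the fatty acid arm no gene passed the test over the 12 libraries by edgeR. Acly, which cuts citrate to acetyl-CoA for both arms, was at 281 and 282 against 220.1 and 239 CPM in the mandible, 370.4 and 225 against 223 and 196 CPM in the ligated femur, and 289.6 and 393 against 330.5 and 178 CPM in the unligated femur. LSD1cKO was lower without overlap in the mandible and the ligated femur (-0.41 ± 0.18 SE, adjusted p = 0.289 by edgeR). Acaca, acetyl-CoA carboxylase, was at 33.7 and 36.2 against 32.1 and 42.4 CPM in the mandible, 51.2 and 27.1 against 36.5 and 34.2 CPM in the ligated femur, and 32.5 and 70.9 against 51.7 and 32.9 CPM in the unligated femur. All 3 pairs of groups overlapped (-0.12 ± 0.22 SE, adjusted p = 0.865 by edgeR). Fasn, fatty acid synthase, was at 73.7 and 78.8 against 109.7 and 121 CPM in the mandible, 88.9 and 81.4 against 55.3 and 52.8 CPM in the ligated femur, and 61.2 and 284 against 97.2 and 79.1 CPM in the unligated femur. LSD1cKO was higher without overlap in the mandible and lower without overlap in the ligated femur (-0.35 ± 0.36 SE, adjusted p = 0.707 by edgeR).

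The desaturases varied most. Fads1, a desaturase of polyunsaturated fatty acids, was at 11.1 and 11.1 against 31.8 and 37.7 CPM in the mandible, 18.6 and 182 against 36.2 and 31.6 CPM in the ligated femur, and 18.7 and 202 against 42.4 and 53.6 CPM in the unligated femur. In each culture both LSD1cKO libraries were above LSD1WT replicate 1, and the femur LSD1WT libraries numbered 2 were several-fold above all others (-0.46 ± 0.78 SE, adjusted p = 0.846 by edgeR). Fads2, which acts before Fads1 on the same fatty acids, was at 2.77 and 2.02 against 6.25 and 8.04 CPM in the mandible, 5.04 and 31.3 against 7.19 and 6.71 CPM in the ligated femur, and 4.35 and 143 against 10.3 and 19.2 CPM in the unligated femur. It had the same order of libraries within each culture (-0.83 ± 0.93 SE, adjusted p = 0.736 by edgeR). Scd1, which places a double bond in saturated fatty acids, was at 0.571 and 0.734 against 0.343 and 0.433 CPM in the mandible, 3.65 and 11.6 against 9.52 and 12.8 CPM in the ligated femur, and 3.86 and 35.0 against 16.1 and 21.9 CPM in the unligated femur. LSD1cKO was lower without overlap in the mandible, on as few as 10 counts, and overlapped LSD1WT in the femur (-0.01 ± 0.44 SE, adjusted p = 0.996 by edgeR). Scd2, its close relative, was at 41.7 and 42.5 against 32.5 and 43.7 CPM in the mandible, 619 and 148 against 188 and 194 CPM in the ligated femur, and 366 and 699 against 447 and 342 CPM in the unligated femur. The groups overlapped in each culture (-0.53 ± 0.32 SE, adjusted p = 0.474 by edgeR). Scd1 and Scd2 are paralogs, and reads shared between them cannot be split with certainty.

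**Figure D2:**
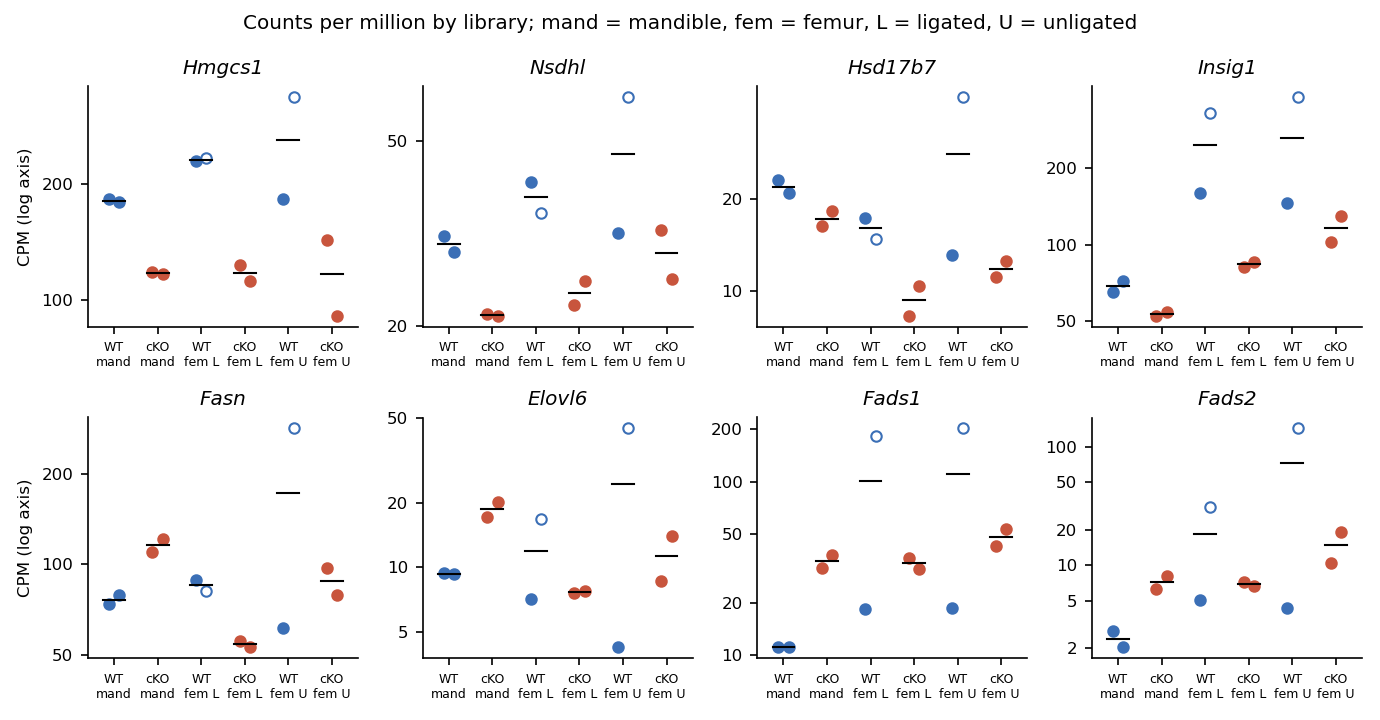
CPM of 4 sterol arm genes (top) and 4 fatty acid arm genes (bottom) in each library on a log axis, LSD1WT in blue and LSD1cKO in red, with a line at the mean of each group of 2. Open circles are the femur LSD1WT libraries numbered 2; Fads1 and Fads2 are higher in LSD1cKO than in every filled LSD1WT circle of the same culture, and Hmgcs1 is lower.

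How far these differences rest on the femur LSD1WT libraries numbered 2 was measured by leaving both out. Then 4 sterol genes were called lower, and both polyunsaturated fatty acid desaturases, the elongase Elovl6 and squalene synthase were called higher. With 10 libraries the median log2 fold change was -0.11 in the sterol arm and 0.22 in the fatty acid arm, against 0.02 for all genes. Hmgcs1, Nsdhl (-0.45 ± 0.12 SE, adjusted p = 0.0184), Hsd17b7 (-0.41 ± 0.13 SE, adjusted p = 0.0448) and Insig1 (-0.48 ± 0.12 SE, adjusted p = 0.0127) were called lower by edgeR, 4 of 31, against 9.75% of all genes. Fads1 (1.37 ± 0.14 SE, adjusted p = 0.000102), Fads2 (1.33 ± 0.26 SE, adjusted p = 0.00422), Elovl6 (0.89 ± 0.21 SE, adjusted p = 0.0115) and Fdft1 (0.39 ± 0.12 SE, adjusted p = 0.0402) were called higher, 4 of 31, against 14.4% of all genes. Both counts of the set thus lay near the shares of all genes called. Elovl6 is an elongase of saturated fatty acids. In this fit each femur condition of LSD1WT has a single library, which is taken to vary like the other groups.

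The size of that dependence differed between the arms and cultures. From replicate 1 to replicate 2 of the LSD1WT ligated femur, the median ratio was 1.43 over the sterol arm and 0.916 over the fatty acid arm, and 8 of 31 genes at least doubled. In the LSD1WT unligated femur the median ratios were 2.8996 and 4.64, and 20 of 31 genes at least doubled, with Fads2 at 32.8 times. In the 3 LSD1cKO pairs, 0 of 31 genes doubled. Over all genes tested the median ratio of these pairs lay between 0.987 and 1.03. How many of all genes at least doubled was not counted, so the counts of doubled genes have no background. Whether doubling was particular to the set was not tested. The coefficient of variation was 0.716 in the LSD1WT ligated femur pair and 0.664 in the LSD1WT unligated femur pair. The libraries numbered 2 also had the low osteoclast and high macrophage sums given above, summed megakaryocyte markers (3 of 3 tested) of 889 and 435 CPM against 9.92 to 57.6 CPM, and summed B cell markers (4 of 5 tested) of 223 and 113 CPM against 8.95 to 47.4 CPM. Proliferation markers (10 of 10 tested) were at 535 CPM in the ligated and 2277 CPM in the unligated library, against 833 and 611 CPM in their replicates 1. The part of these cell markers in the result was not tested. Of 6 adipocyte markers 1 was tested, Adig, and Cidec, Cfd and Lep were at 0 counts in all 12 libraries.

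**Figure D3:**
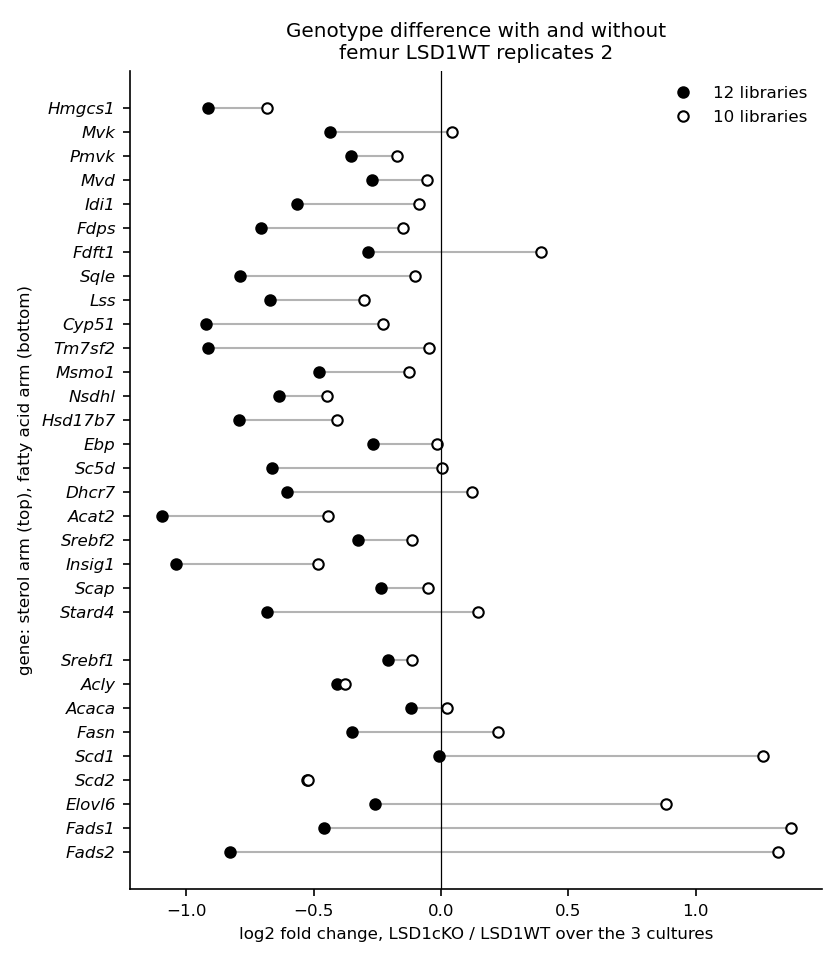
Log2 fold change of LSD1cKO against LSD1WT over the 3 cultures for each gene, with all 12 libraries (filled) and without the femur LSD1WT libraries numbered 2 (open, 10 libraries). Hmgcs1 moves from -0.92 to -0.69, while Fads1 moves from -0.46 to 1.37 and Fads2 from -0.83 to 1.33.

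The genotypes were then compared within each culture. In the mandible cultures of ligated mice, Fads1, Fads2, Elovl6 and Fasn were higher in both LSD1cKO libraries and 12 of the 22 sterol genes were lower in both. LSD1cKO lay above LSD1WT without overlap for 7 genes, Fasn, Elovl6, Fads1, Fads2, Fdft1, Dhcr7 and Stard4, against 34.1% of all genes, and below it for 14, 12 of them in the sterol arm, against 34.8%. Elovl6 was at 9.39 and 9.28 against 17.2 and 20.3 CPM. The log2 fold changes were 1.64 ± 1.10 (SE) for Fads1, 1.58 ± 1.29 for Fads2, 1.01 ± 0.85 for Elovl6, 0.60 ± 0.54 for Fasn and -0.62 ± 0.31 for Hmgcs1. In the fit of all 12 libraries 0 of 31 genes were called by edgeR, against 0% of all genes, 0 had an unadjusted p under 0.05, against 4.82%, and DESeq2 called 0, against 0.947%. The spread in that fit includes the femur LSD1WT pairs. With the 4 mandible libraries alone, edgeR called 12 of the 31. Those lower were Hmgcs1, Nsdhl, Hsd17b7, Lss, Insig1 and Acly, 6 of 31 against 18.6% of all genes, and those higher were Fads1, Fads2, Elovl6, Fasn, Fdft1 and Stard4, 6 of 31 against 19.2%. Fads1 had an adjusted p of 2.93e-05 there and Hmgcs1 of 0.000113. The 6 genes lower and 6 higher lay near the shares of all genes called. In this fit the LSD1WT pair had the smallest spread of any condition, a coefficient of variation of 0.0246. Of that pair, 1 library carries a femur library name. Whether the pair measures the spread between mice was not tested. Without the femur LSD1WT libraries numbered 2, edgeR called Fads1, Fads2, Elovl6 and Fasn higher in the mandible, 4 of 31 against 5.13% of all genes. Marker sums differed with genotype in the same cultures. Stromal and osteoblast markers (4 of 6 tested) were at 40.1 and 40.8 CPM in LSD1WT and 8.45 and 3.18 CPM in LSD1cKO. The collagen genes Col1a1 and Col1a2 made up most of that sum. Col3a1 was also lower in LSD1cKO, while Lepr overlapped between the genotypes and Cxcl12 and Bglap had too few counts to test. Proliferation markers were higher in LSD1cKO, at 1269 and 1238 CPM in LSD1WT and 1748 and 1956 CPM in LSD1cKO. Osteoclast markers were lower in LSD1cKO, at 28489 and 28359 CPM in LSD1WT against 16345 and 16398 CPM. The part of these marker sums in the differences was not tested.

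In the femur of ligated mice no gene of the set passed the adjusted test, and the log2 fold changes of the sterol arm were all negative. The median log2 fold change was -0.77 over its 22 genes and -0.63 over the 9 fatty acid genes, against -0.12 for all genes. Without LSD1WT ligated femur replicate 1 the fatty acid median was -0.0298. LSD1cKO lay below both LSD1WT libraries for 21 of 31 genes, 18 of them in the sterol arm, against 19.4% of all genes. Insig1 (-1.56 ± 0.46 SE), Acat2 (-1.40 ± 0.61 SE) and Hmgcs1 (-0.98 ± 0.31 SE) had an unadjusted p under 0.05, 3 of 31 against 2.97% of all genes lower. By edgeR 0 of 31 passed adjustment, against 0.00648% of all genes, and DESeq2 called 0, against 1.39%. Set against LSD1WT replicate 1 alone, the LSD1cKO mean was lower for 21 of 22 sterol genes, with a median difference of -0.48, and for 5 of 9 fatty acid genes. In this culture the osteoclast sum was 43724 CPM in LSD1WT replicate 1 and 931 CPM in replicate 2, against 22389 and 19653 CPM in LSD1cKO. The proliferation sum was 833 and 535 CPM in LSD1WT against 447 and 521 CPM in LSD1cKO, without overlap. Of its genes, Mki67, Top2a, Ccna2 and Cdk1 did not overlap either, while the genotypes overlapped for Ccnb1, Mcm2, Mcm5, Pcna, Rrm2 and Tyms. The part of these markers in the result was not tested. Without the libraries numbered 2, edgeR called Sqle, Lss, Cyp51, Hsd17b7, Insig1 and Scd2 lower, 6 of 31 against 2.46% of all genes, and Fads1 and Scd1 higher, 2 of 31 against 6.89%. Scd1 (1.69 ± 0.32 SE, adjusted p = 0.0189) and Scd2 (-1.61 ± 0.22 SE, adjusted p = 0.00681) thus went opposite ways in that edgeR fit.

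In the femur of unligated mice the lower levels in LSD1cKO depended on 1 library. The median log2 fold change was -0.996 in the sterol arm and -0.43 in the fatty acid arm, against -0.05 for all genes, and 10 of 31 genes, all of the sterol arm, had an unadjusted p under 0.05, against 1.34% of all genes lower. By edgeR 0 of 31 passed adjustment, against 0% of all genes, and DESeq2 called 0, against 0.854%. LSD1cKO lay below both LSD1WT libraries for 8 of 31 genes (Hmgcs1, Pmvk, Mvd, Lss, Cyp51, Msmo1, Hsd17b7 and Insig1), against 8.57% of all genes. Set against LSD1WT replicate 1 alone, the LSD1cKO mean was lower for 12 of 22 sterol genes, with a median difference of -0.04, and for 1 of 9 fatty acid genes, with a median difference of 0.53. Without the libraries numbered 2, edgeR called Scd1 (2.31 ± 0.33 SE, adjusted p = 0.0234) and Fads1 (1.37 ± 0.21 SE, adjusted p = 0.0269) higher, 2 of 31 against 2.14% of all genes. Hmgcs1, at -1.15 ± 0.31 (SE) with all libraries, had LSD1cKO below both LSD1WT libraries here as well.

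**Figure D4:**
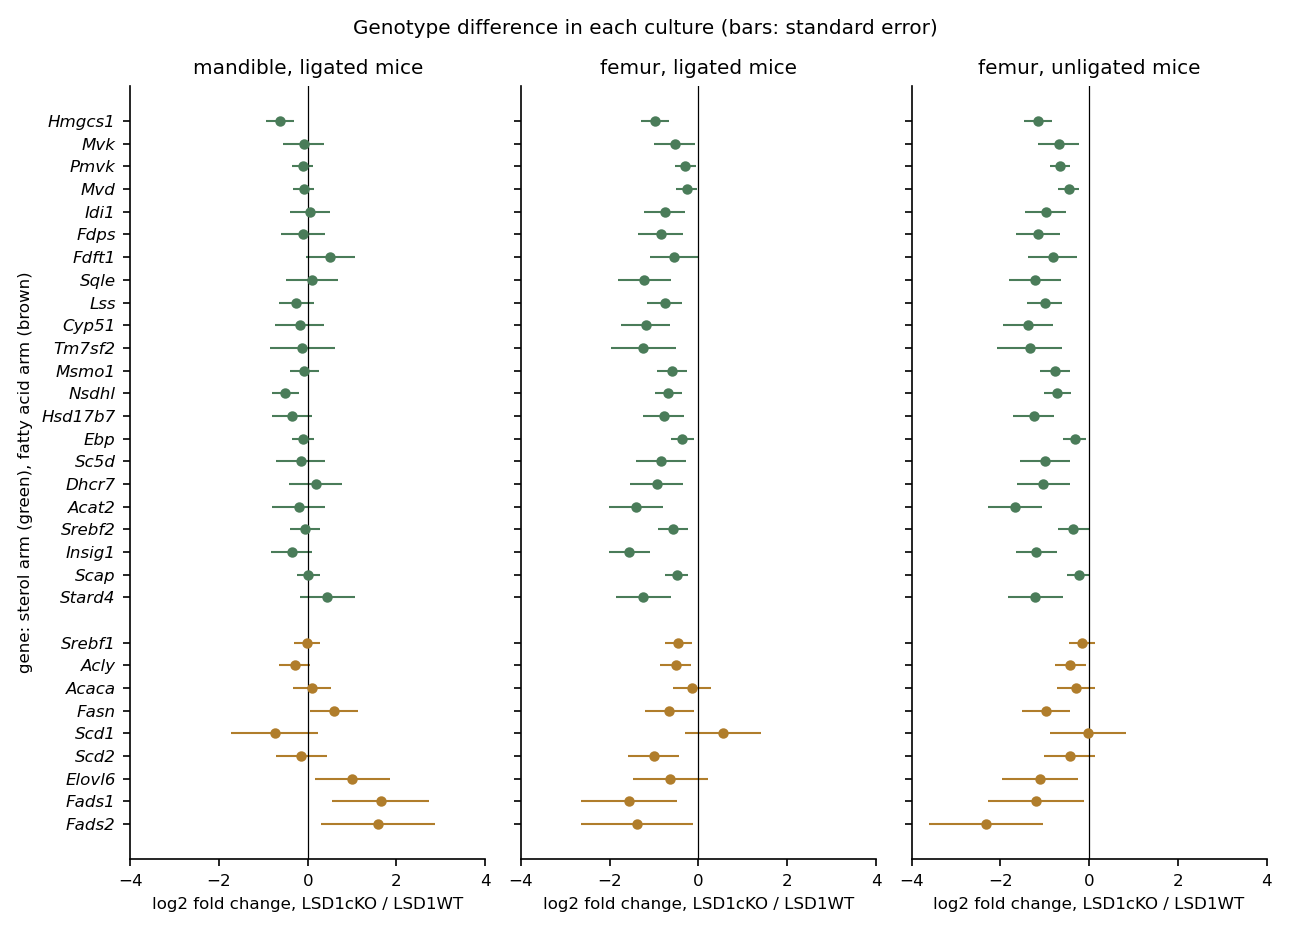
Log2 fold change of LSD1cKO against LSD1WT in each culture with its standard error, from the fit of all 12 libraries (2 libraries per group), for the sterol arm (green) and the fatty acid arm (brown). Points of both arms lie left of 0 in the femur panels except Scd1 in the ligated femur. In the mandible panel 6 sterol and 5 fatty acid genes lie right of 0, and Fads1, Fads2, Elovl6, Fasn, Fdft1 and Stard4 lie farthest right.

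Whether the effect of LSD1 loss differed between mandible and femur of ligated mice was tested as an interaction. No gene of the set passed (edgeR called 0 of 31, against 0% of all genes, DESeq2 called 0, against 0.00648%, and 0 of 31 had an unadjusted p under 0.05, against 0.966% of all). The difference was positive for 22 of 22 sterol genes, with a median of 0.60, and for 8 of 9 fatty acid genes, with a median of 0.86, while the median of all genes was 0.09. A count of 3 of 31 genes (Fasn, Stard4 and Dhcr7) lay higher in LSD1cKO in the mandible and lower in the ligated femur, both without overlap, against 3.64% of all genes. Fads1 had the largest difference, 3.21 ± 1.55 (SE). Without LSD1WT ligated femur replicate 1 the fatty acid median was 0.05, so that value rests on 1 library. Between ligated and unligated femur the effect of LSD1 loss gave 0 of 31 calls by edgeR, against 0% of all genes, and 0 by DESeq2, against 0%, and 0 of 31 had an unadjusted p under 0.05, against 0.344% of all genes.

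The comparison of mandible with femur in ligated mice asks which genes differ between the 2 sites. Levels of both stearoyl-CoA desaturases were far lower in the mandible, in LSD1WT and in LSD1cKO. Scd1 stood at 0.343 to 0.734 CPM in the 4 mandible libraries and at 3.65 to 35.0 CPM in the 8 femur libraries. Scd2 stood at 32.5 to 43.7 CPM against 148 to 699 CPM. Mvd, at 19.3 to 21.2 against 36.0 to 63.8 CPM, and Insig1, at 52.2 to 72.0 against 81.7 to 383 CPM, also did not overlap. With Fdps, Tm7sf2 and Dhcr7, 7 of 31 genes were lower in every mandible library than in every femur library, against 7.18% of all genes. In the ligated LSD1WT mice the log2 fold changes were -3.54 ± 0.98 (SE) for Scd1 and -3.19 ± 0.62 for Scd2, and in the ligated LSD1cKO mice -4.82 ± 1.04 and -2.33 ± 0.60. Without LSD1WT ligated femur replicate 1 the value of Scd2 in LSD1WT was -1.78, so its size rests on that library. Marker sums differed between the sites too, with macrophage markers at 2825 to 3524 CPM in the mandible libraries against 6521 to 44654 CPM in the femur libraries, and B cell markers at 8.95 to 11.6 against 13.1 to 223 CPM. The part of these markers in the result was not tested. Within a genotype edgeR called 0 of 31 genes, against 0% of all genes in LSD1WT and 0% in LSD1cKO, while 8 genes were lower in LSD1WT (14.7% of all genes) and 3 in LSD1cKO (6.81% of all genes) at an unadjusted p under 0.05. DESeq2 called 5 of 31 genes in LSD1WT, against 8.47% of all genes, and 3 in LSD1cKO, against 5.78%. With the 4 LSD1cKO libraries of ligated mice alone, edgeR called 5 of 31 genes lower (Mvd, Fdps, Insig1, Scd1 and Scd2), against 20.8% of all genes, and 6 higher (Sqle, Hsd17b7, Acat2, Scap, Fasn and Elovl6), against 21.4%.

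Averaging both genotypes, a contrast added after the values were seen, gave edgeR calls for Scd2 (-2.76 ± 0.43 SE, adjusted p = 0.0214), Scd1 (-4.18 ± 0.71 SE, adjusted p = 0.0243) and Mvd (-0.99 ± 0.17 SE, adjusted p = 0.0243), 3 of 31 against 4.41% of all genes lower. Their adjusted p rose to between 0.084 and 0.160 when any single mandible or ligated femur LSD1cKO library was left out. With the replicate block the edgeR adjusted p were 0.171 for Scd2, 0.145 for Scd1 and 0.185 for Mvd. In that block the same-numbered mandible and ligated femur libraries of LSD1cKO are from 1 mouse, but it also joined libraries of different mice that share a number. With replicate 3 of LSD1WT moved to the femur, which left 1 mandible library of LSD1WT, none of the 3 genes was called. Without the femur LSD1WT libraries numbered 2, edgeR called Mvd, Insig1, Scd1 and Scd2 lower in the mandible in LSD1WT, 4 of 31 against 0.768% of all genes. In LSD1cKO the same fit called the same 4 genes lower, 4 of 31 against 11% of all genes, and Sqle, Hsd17b7, Fasn and Elovl6 higher, 4 of 31 against 10.7%.

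**Figure D5:**
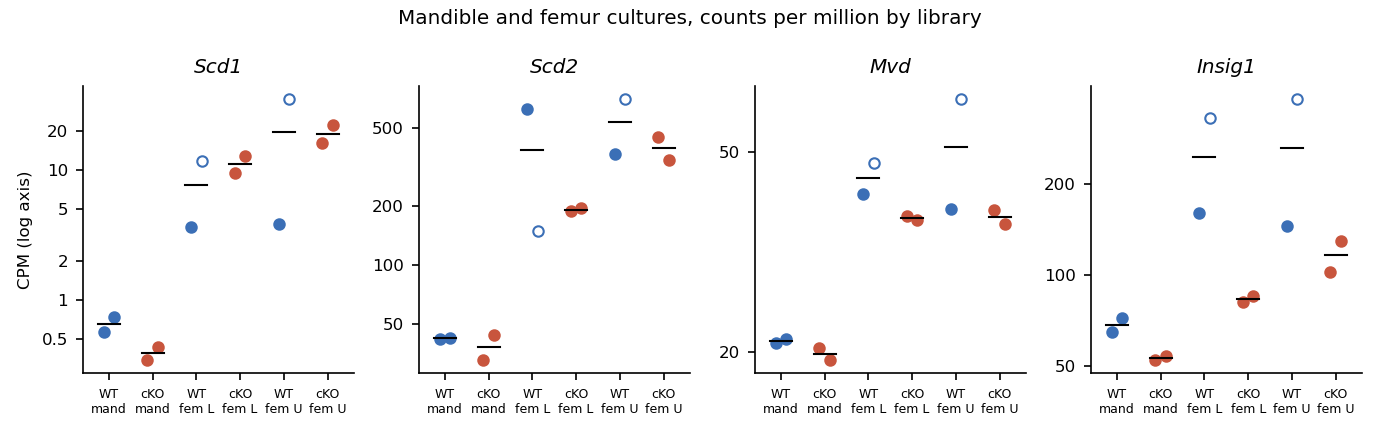
CPM of Scd1, Scd2, Mvd and Insig1 in each library on a log axis, LSD1WT in blue and LSD1cKO in red, with a line at the mean of each group of 2 and open circles for the femur LSD1WT libraries numbered 2. The mandible libraries on the left lie below every femur library for all 4 genes.

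Ligature made no difference that the test could call. Between femur cultures of ligated and unligated mice edgeR called 0 of 31 genes in LSD1WT, against 0% of all genes, and 0 of 31 in LSD1cKO, against 0%. At an unadjusted p under 0.05 the counts were 0 of 31 and 0 of 31, against 0.765% and 0.959% of all genes, and DESeq2 called 0 in both, against 0.013% and 0.00648%. In LSD1cKO the log2 fold change was negative for 20 of 22 sterol genes (median -0.30) and 9 of 9 fatty acid genes (median -0.66). The median of all genes was -0.03. In LSD1WT it was negative for all 22 (median -0.34) and all 9 (median -0.47), against 0.03 for all genes. Across the settings run, 22 of 31 genes kept their direction in LSD1cKO and 0 in LSD1WT. The 2 LSD1WT libraries of each condition differed by the ratios given above. For single genes a difference between conditions was not detectable with these replicates.

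Genes of the same pathways outside the set were counted in the same comparison, in which 0.532% of all genes were called lower and 7.76% were lower at an unadjusted p under 0.05. Of 16 other sterol genes 14 were tested and 0 were called over the 3 cultures by edgeR, with 1 lower at an unadjusted p under 0.05. Of 22 other fatty acid genes 20 were tested and 1 was called lower, with 6 lower at an unadjusted p under 0.05. The called gene was Acsl3, which activates long-chain fatty acids by joining them to coenzyme A (log2 fold change -0.97 ± 0.16 SE, adjusted p = 0.0084 by edgeR). Its log2 fold changes were -0.69 in the mandible, -1.22 in the femur of ligated mice and -0.98 in that of unligated mice.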

How the data were processed

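The authors deposited raw counts per gene for 12 libraries of polyA RNA, made, per the labels, with HISAT2 2.1.0 and featureCounts on build GRCm39, with FastQC and edgeR also named. The annotation release, strand setting and filters are not given in the sources used here. By the labels the libraries came from 9 mice, since some mice gave both mandible and femur marrow. The p-values measure the spread between these samples. Groups were taken from the titles and library names. Counts were scaled with TMM in edgeR 4.0.16 (R 4.3.3), genes were filtered with filterByExpr on the 6 conditions (15425 of 57010 kept), and the quasi-likelihood test with Benjamini-Hochberg adjustment over all genes tested was applied at 0.05. The comparison over the 3 cultures used culture and genotype as terms, and the others used 1 term per condition. CPM are counts over the TMM-scaled library size on edgeR's usual scale, log2 CPM carry a prior count of 2, and SE is the size of the log2 fold change over the square root of F. The script was tested on simulated data. Alternatives were DESeq2 1.42.0, limma voom 3.58.1 with the mouse as a random block, RLE and upper-quartile scaling, other filters, libraries left out and a replicate block. The average of both genotypes for mandible against femur, and each femur LSD1WT library as the only control, were added after seeing the data. The replicate numbers mark the same mouse only between mandible and ligated femur, for both LSD1cKO numbers and LSD1WT number 1. In LSD1cKO the deviations of these pairs correlated at r = 0.026 over all genes tested. In limma voom the correlation within a mouse was 0.519 with culture and genotype as terms, and -0.391 with 1 term per condition. The main edgeR fits had no term for the mouse and took libraries of 1 mouse as independent.

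The genes of the set and the other lists were chosen with earlier results of these data known. Values in every library are given for 11 genes named by role (Hmgcs1, Fdft1, Sqle, Srebf1, Srebf2, Insig1, Acly, Acaca, Fasn, Scd1 and Scd2), the 8 with the smallest p over the 3 cultures, any called in a comparison of all 12 libraries and the 4 with the widest range, and all 31 are named. Gene lengths and exon overlaps came from GENCODE vM21 (GRCm38) by Ensembl identifier. All p-values are two-sided.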

Additional observations from a re-analysis of the deposited data

Results flagged for a closer look

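Of the 31 genes, 3 had every LSD1cKO library above LSD1WT in the mandible and below it in the ligated femur, against 3.64% of all genes. The log2 fold change of Fasn was 0.60 for mandible and -0.65 for ligated femur, a difference of 1.25 ± 0.77 (SE). Stard4 had 0.45 and -1.25, a difference of 1.69 ± 0.87 (SE). Dhcr7 had 0.18 and -0.94, a difference of 1.12 ± 0.84 (SE). By edgeR's test of the interaction the adjusted p was 0.9999 for each of these, and the unadjusted p were 0.139, 0.0848 and 0.216. In the LSD1WT ligated femur, Stard4 was at 52.5 and 122.6 CPM and Dhcr7 at 22.6 and 41.1 CPM in replicates 1 and 2. With 2 libraries in a condition, the pair itself cannot tell which of them is the outlying one.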

How the results depend on the processing

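Of the 31 genes, 1 was called over the 3 cultures, and the count was 2 with upper-quartile scaling, 3 with DESeq2, 3 at an adjusted p under 0.10, 8 without both femur LSD1WT libraries numbered 2, and 0 to 2 with single libraries left out. With a replicate block it was 2, although the numbers mark a shared mouse only in part. Among all genes 544 were called, against 1248 with DESeq2, 3867 without both libraries numbered 2, 348 with mandible LSD1WT replicate 3 placed in the femur, and 298 to 653 with single libraries left out. Without both libraries numbered 2 the counts of the 31 were 4 in the mandible, 8 in the femur of ligated mice and 2 in that of unligated mice (0 to 1 with single libraries left out), and the 4 mandible libraries alone gave 12. In the mandible 0 of all genes were called, against 146 with DESeq2, 45 with no filter beyond 1 count, 936 without both libraries numbered 2 and 5434 with the mandible libraries alone.

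The sterol median over the 3 cultures was -0.11 without both. In the unligated femur it was -0.0323 without both and ran from -1.47 to -0.0330 with single libraries left out, and the fatty acid median was 0.54 without both and ran from -0.81 to 0.54. The fatty acid median of the mandible against femur difference of the LSD1cKO effect ran from 0.0495 to 1.0005. For mandible against femur, LSD1WT gave 5 calls with DESeq2, 4 with no filter beyond 1 count, 4 without both and 0 to 7 with single libraries left out. LSD1cKO gave 3, 2, 8 and 0 to 2, and 11 from its own libraries alone, against 42.1% of all genes. The ligated femur fatty acid median ran from -0.56 to -0.0298 with single libraries left out. That range does not hold the value of -0.63 from all libraries, because leaving out 1 library also changed the genes kept and the library TMM scaled to: without any of the 8 libraries of other conditions, scaling alone raised ligated femur log2 fold changes by 0.0702 to 0.0870.

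Over the 3 cultures Scd1 turned positive, at 0.00751 with RLE scaling, 0.0617 with upper-quartile scaling, 0.0485 with no filter beyond 1 count, 0.0369 at a mean of at least 10 counts, 0.43 with mandible LSD1WT replicate 3 as femur, 0.24 with the replicate block, 0.74 with limma voom and 1.27 without both libraries numbered 2 (-0.19 to 0.62 with single libraries left out). Without both, others also turned: Fdft1 to 0.39 (-0.37 to 0.16 with single libraries left out), Acaca to 0.0246 (-0.21 to 0.12), Fasn to 0.22 (-0.44 to 0.16), Fads1 to 1.37 (-0.76 to 0.44) and Fads2 to 1.33 (-1.20 to 0.55). In the ligated femur Fads1 turned to 0.95 (-2.34 to 0.86), Fads2 to 0.55 (-2.08 to 0.46) and Elovl6 to 0.19 (-1.03 to 0.11). In the unligated femur Fads1 turned to 1.37 (-2.01 to 1.36), Fads2 to 1.77 (-3.21 to 1.77), Elovl6 to 1.42 (-1.91 to 1.42) and Fasn to 0.54 (-1.62 to 0.54). The cause was not tested. Across the settings run, 20 of 31 genes kept their direction over the 3 cultures in each one. With 2 libraries in a condition, the femur comparisons rest on the LSD1WT pairs.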
